A study of Mus musculus with 16 samples.

Results

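In mouse cochlear hair cells, 39 of 49585 genes were high in both groups labelled outer hair cell (OHC) and close to 0 in both groups labelled inner hair cell (IHC). Members were chosen by RPKM, a read number scaled to exon length and library depth. A member had a mean of at least 5 RPKM in 9m OHC and in 26m OHC and of at most 0.5 RPKM in 9m IHC and in 26m IHC. Genes of the sex chromosomes were left out, which removed 1 gene. Copies of ribosomal protein genes were among its highest genes, and the kinase gene *Pim1* and the homeobox gene *Cux2* were its markers.

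The study followed how aging changes the transcripts of hair cells in untreated CBA/J mice (CBA in the labels). Hair cells of either type were picked singly from the organ of Corti at 9 or 26 months and pooled, and each of the 4 groups holds 4 RNA-seq libraries. All groups share the strain, and the labels name no transgene or drug. Fewer cells of a type in a pool and less RNA per cell cannot be told apart.

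IHCs pass sound on to the auditory nerve. OHCs amplify it by changing their length, which rests on the motor protein prestin. A processed pseudogene is a messenger RNA written back into the genome without introns, so that reads of parent and copy can be hard to tell apart. The same holds for reads of genes that overlap on opposite strands when strand is not recorded.

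The libraries held 19666190 to 31243721 mapped reads. Those labelled IHC had 23161311 or more and those labelled OHC 21226800 or fewer, so the low values stood in the deeper libraries. Reads from the mitochondrial genome were rarer in the IHC libraries (1.16% to 2.05%) than in the OHC libraries (7.48% to 9.56%). The make-up of the RNA thus differed along the contrast that defines the set. With RPKM rescaled after leaving those genes out, 51 genes met the thresholds, all 39 members among them. Within a group, library 1 differed from library 2, and library 3 from library 4, by no more than sampling noise (chi-square averaged over genes, 0.995 to 1.10 for 8 pairs against 2.72 to 3.47 for the other 16). The 2 libraries of such a pair entered as their mean, which leaves n = 2 per group. For the libraries, the methods name a pair of biological replicates per group, each from several mice and sequenced in technical repeats. For the mice used, they name 3 biological replicates. No label says whether a library is a biological or a technical replicate. The pairs found here have the form of the first statement. If they are not the biological replicates, p-values reflect a spread that is technical only.

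Hair cell markers went against the labels 26m IHC and 9m OHC, and *Slc26a5* was low in 26m OHC too. *Slc26a5*, which encodes prestin, was at 816 ± 4.24 RPKM (SD, n = 2 here and below) in 26m IHC and at 1.85 ± 0.0778 RPKM in 26m OHC. It was at 1.07 ± 0.0548 RPKM in 9m IHC and 0.172 ± 0.00137 RPKM in 9m OHC. *Ocm*, a calcium buffer of OHCs, was at 12918 ± 140.3 RPKM in 26m IHC and 1151 ± 5.73 RPKM in 26m OHC. At 9 months *Ocm* was at 32.9 ± 1.74 RPKM in IHC and 97.0 ± 1.79 RPKM in OHC. Both OHC markers were thus highest in 26m IHC, while *Ocm* was lowest in 9m IHC. By the age calls described below, 8 of 8 listed OHC markers were higher in 26m IHC than in 9m IHC. For listed IHC markers, 6 of 6 were lower there. From 9m OHC to 26m OHC, 6 of 8 OHC markers were called higher and 0 lower. Of 6 IHC markers, 2 were called lower and 0 higher in that comparison. *Otof*, needed for release at the IHC synapse, was at 349.6 ± 10.2 RPKM in 9m IHC, 138 ± 2.89 in 9m OHC, 76.8 ± 2.28 in 26m OHC and 23.5 ± 0.292 in 26m IHC. If 26m IHC and 9m OHC traded places, a possibility raised by the marker values themselves, the 39 genes would be high in both aged groups and low in both young ones. Cell type and age cannot be told apart for them, and group names below are those of the labels. For the member count, 212 genes passed in the 2 other groups alone (9m IHC and 26m OHC). All 39 members are among them by the rule itself, so this count does not check them.

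The following stretches show how little separates some members from a parent gene. The transcript of *Gm10260* aligned to the whole coding sequence of *Rps18*, a protein of the small ribosomal subunit, with 4 substitutions in 456 bases. The 90 bases with the most substitutions are at chr13:97760218-97760307 in *Gm10260* and within chr17:33952233-33952412 in *Rps18*, across an intron (GRCm38, minus strand, GENCODE M21 transcripts). Capitals mark the bases that differ, here and in the next pairs.
Gm10260: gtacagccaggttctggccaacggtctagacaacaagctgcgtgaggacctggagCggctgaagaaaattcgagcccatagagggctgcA
Rps18: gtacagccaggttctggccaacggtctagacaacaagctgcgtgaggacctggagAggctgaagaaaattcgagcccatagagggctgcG

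*Gm4737* carries the coding sequence of *Ahcy*, the enzyme that splits S-adenosylhomocysteine, with 4 substitutions in 1296 bases and an identical run of 575 bases. The stretches lie at chr16:46154539-46154628 and within chr2:155064898-155065597, on the minus strand.
Gm4737: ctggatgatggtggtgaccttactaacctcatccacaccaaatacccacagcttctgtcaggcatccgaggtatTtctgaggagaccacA
Ahcy: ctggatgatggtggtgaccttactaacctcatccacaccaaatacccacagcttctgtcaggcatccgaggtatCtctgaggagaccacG

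*Bcl2a1b*, of the anti-apoptotic A1 family, differed more from its family member *Bcl2a1a*, with 11 substitutions in 516 coding bases. The stretches lie at chr9:89199364-89199453 and chr9:88957055-88957144, on the plus strand.
Bcl2a1b: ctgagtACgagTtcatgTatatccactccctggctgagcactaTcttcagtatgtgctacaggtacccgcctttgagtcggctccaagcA
Bcl2a1a: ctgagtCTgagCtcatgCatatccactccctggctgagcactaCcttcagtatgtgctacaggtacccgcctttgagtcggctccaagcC

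Other members face a gene on the opposite strand of their own locus. *Gm44709*, annotated as antisense RNA, faces *Supt5*, a transcription elongation factor, and a run of 146 of its bases is the reverse complement of *Supt5* coding sequence. Of that run 60 bases, at chr7:28315213-28315272 on the plus strand, are shown in the direction of *Gm44709*.
Gm44709: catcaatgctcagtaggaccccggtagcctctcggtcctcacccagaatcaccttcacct

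To measure sharing, the longest transcript of each gene was cut into windows of 75 bases at steps of 25. A window was shared when a transcript of another gene holds it on either strand. At least 20% of windows were shared in 22 of 39 members (56.4%). The share was 13.2% among the other genes at 5 RPKM or more in both OHC groups and 13.1% among all genes at 0.1 RPKM or more in a group. In the mirror set, the 30 genes high in both IHC groups and low in both OHC groups, it was 14 genes (46.7%), so sharing was common on both sides of the contrast. With a gene at another place, 13 members (33.3%), 4 mirror genes (13.3%) and 4.16% of all genes shared windows. With an overlapping gene alone, 9 members (23.1%), 10 mirror genes (33.3%) and 8.96% of all genes did.

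The members were short. Their summed exon length had a median of 1559 bases (quartiles 636 and 2653), against 3455 bases for the other genes high in both OHC groups, 3752 for the mirror set and 3856 for all genes. It was under 1000 bases in 18 members (46.2%), 2 mirror genes (6.67%) and 8.34% of all genes. The longest transcript had 1 exon in 12 members (30.8%), 4 mirror genes (13.3%) and 6.70% of all genes. By annotation 24 members were protein-coding, 7 antisense, 5 pseudogenes and 3 long intergenic RNAs, whereas 29 of 30 mirror genes were protein-coding. A predicted-gene name was held by 19 members (48.7%) and 15.4% of all genes. The shortest members were *Hist1h2al* (339 bases), a histone sequence annotated as a processed pseudogene, *Gm15420* (388) and *Gm17134* (437). The longest were *Meg3*, an imprinted noncoding RNA (18089), *Cux2* (10082) and *Cramp1l* (7877). Genes are not replicates, and these shares were not tested. The members lie on 19 chromosomes, with at most 4 on one.

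**Figure D1:**
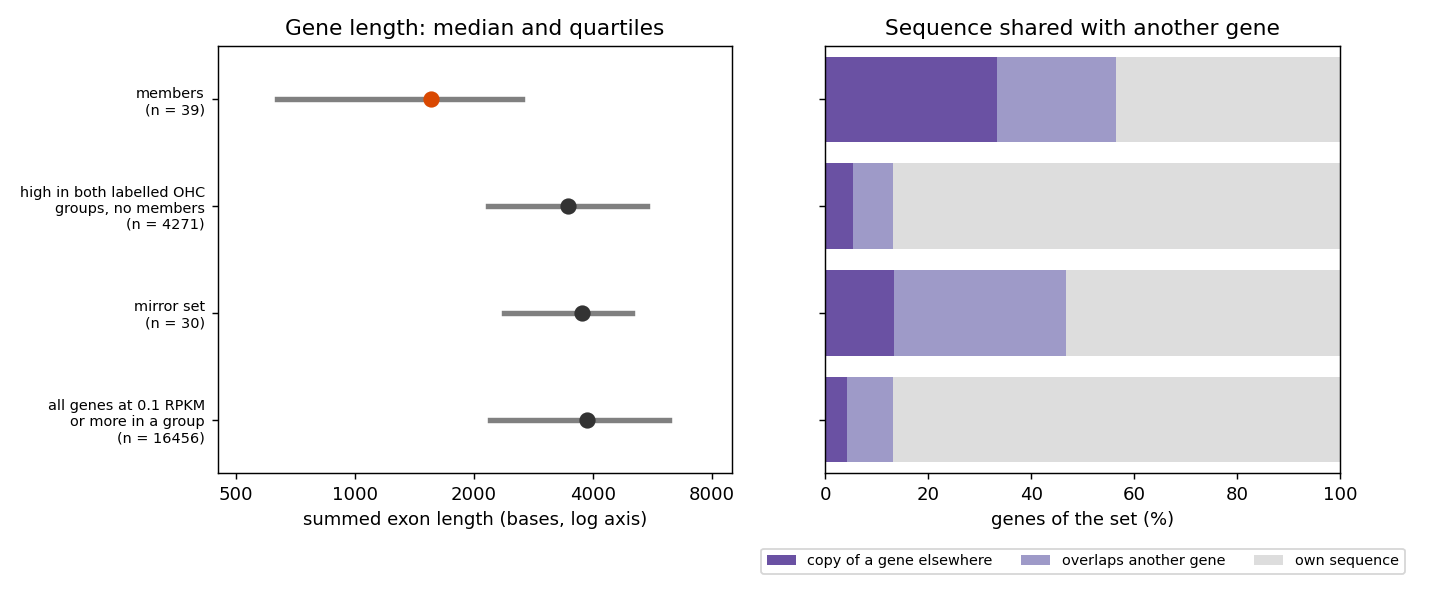
Left, summed exon length in bases on a log axis for 4 sets of genes (points, median; bars, quartiles). Right, percent of each set that shares at least 20% of its 75-base windows with a gene at another place, with an overlapping gene alone, or neither. The members have the shortest median, 1559 bases, and 33.3% of them match a gene elsewhere.

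In all 39 members the lowest of 8 OHC libraries was above the highest of 8 IHC libraries, which 14.5% of all genes at 0.1 RPKM or more showed. These differences chose the members and were not tested. Means ran from 5.02 to 354 RPKM in 9m OHC (median 13.6) and from 5.30 to 252 RPKM in 26m OHC (median 12.6). The medians in 9m IHC and 26m IHC were 0.182 and 0.134 RPKM. For the 28 members whose whole reads could be recovered, a median of 433 reads stood behind an OHC mean and of 5.87 behind an IHC mean. The averaged replicates of an OHC group had a median coefficient of variation of 2.33%, and of up to 21.7% in *Gm21738*. At 0 in all 8 IHC libraries were 4 members, while 19 were above 0 in each of them. The IHC levels were thus low and, for many members, still measurable.

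**Figure D2:**
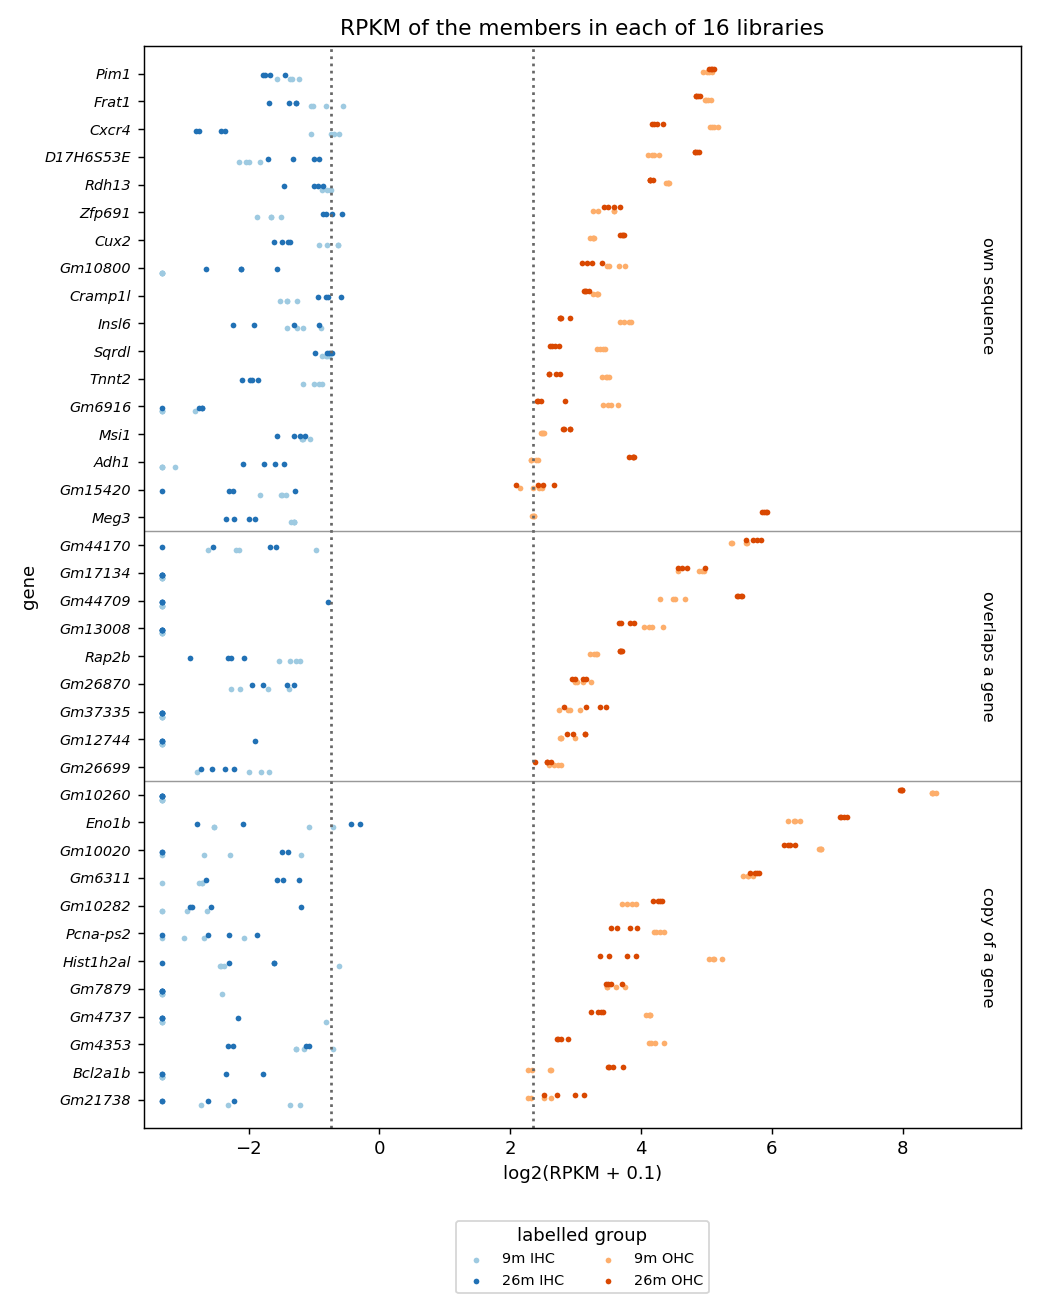
Each point is 1 library, with log2(RPKM + 0.1) on the x axis and the members shown on the y axis, grouped by how they share sequence. The libraries labelled OHC lie to the right of those labelled IHC in every member shown, as the choice of members sets.

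The edges of the set were gradual. Just inside the OHC threshold were *Meg3* (lower OHC mean 5.02 RPKM), *Gm15420* (5.04) and *Adh1* (5.05), and just outside *Gm42846* (4.84), *Notch2* (4.66) and *Gm26735* (4.65). Just inside the IHC threshold were *Zfp691* (higher IHC mean 0.499 RPKM), *Cux2* (0.498) and *Cxcr4* (0.488), and just outside *Pdpn* (0.511), *Sfxn5* (0.516) and *Gdf11* (0.526).

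Under 20% of windows were shared in 17 members, of which 14 were protein-coding. *Pim1* (ENSMUSG00000024014, chr17:29490812-29496111) encodes a serine/threonine kinase that cytokines induce through STAT factors and that favors survival. It read 32.6, 33.7, 30.9 and 32.1 RPKM in 9m OHC and 33.7, 33.4, 32.8 and 34.4 RPKM in 26m OHC. In 9m IHC it read 0.295, 0.328, 0.289 and 0.236 RPKM, and in 26m IHC 0.269, 0.192, 0.213 and 0.196 RPKM. The OHC libraries lay in a narrow band in which the ages overlapped. Of 9 cytokine-induced kinases and feedback regulators in the table, *Pim1* was the one member, and 2 reached 5 RPKM in both OHC groups.

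*Cux2* (ENSMUSG00000042589, chr5:121856366-122050102) encodes a cut-homeobox transcription factor known from upper-layer cortical neurons. It read 9.51, 9.59, 9.48 and 9.22 RPKM in 9m OHC and 13.1, 13.2, 13.01 and 12.7 RPKM in 26m OHC. In 9m IHC it read 0.427, 0.476, 0.547 and 0.542 RPKM, and in 26m IHC 0.289, 0.279, 0.227 and 0.256 RPKM. The ages did not overlap in OHC. No window of *Cux2* was shared, and 859 reads over 8 IHC libraries show that it was detected there. It was the one member among 7 cut-homeobox genes.

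Paralogs of members, named here after their values were seen, went both ways. *Pim2* was at 5.90 ± 0.0486 and 5.68 ± 0.241 RPKM in 9m and 26m IHC and 1.58 ± 0.287 and 2.14 ± 0.146 in 9m and 26m OHC. *Pim3* was at 23.0 ± 0.629 and 15.3 ± 0.984 RPKM in the IHC groups and 3.71 ± 0.0502 and 12.03 ± 0.399 in the OHC groups. *Cux1* was at 4.14 ± 0.0850 and 3.99 ± 0.112 RPKM in the IHC groups and 1.93 ± 0.0237 and 2.78 ± 0.111 in the OHC groups. These 3 were higher in IHC, opposite to the members. *Msi2* was at 1.22 ± 0.102 and 2.41 ± 0.109 RPKM in the IHC groups and 4.31 ± 0.106 and 7.52 ± 0.195 in the OHC groups. *Adh5* was at 12.3 ± 0.211 and 9.47 ± 0.432 RPKM in the IHC groups and 22.04 ± 0.347 and 27.04 ± 0.0252 in the OHC groups, so both followed the order of the members. *Rap2a* was at 3.79 ± 0.0303 and 2.498 ± 0.0970 RPKM in the IHC groups and 0.00572 ± 0.00808 and 3.55 ± 0.0652 in the OHC groups, low in 9m OHC alone.

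Among signaling genes, *Frat1*, which binds the kinase GSK3 and favors Wnt signaling, was at 32.3 ± 0.549 and 29.0 ± 0.224 RPKM in 9m and 26m OHC and 0.457 ± 0.0942 and 0.280 ± 0.0465 in 9m and 26m IHC. Its paralog *Frat2* was at 3.07 ± 0.0514 and 0.0616 ± 0.0217 RPKM in the OHC groups and 7.97 ± 0.152 and 8.03 ± 0.563 in the IHC groups, the opposite order. *Cxcr4*, the receptor of the chemokine CXCL12, was at 34.3 ± 0.744 and 18.7 ± 1.03 RPKM in the OHC groups and 0.488 ± 0.0273 and 0.0684 ± 0.00449 in the IHC groups.

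The other members of this kind had varied roles. *Rdh13*, a retinol dehydrogenase of mitochondria, was at 21.1 ± 0.151 and 17.6 ± 0.215 RPKM in 9m and 26m OHC, *D17H6S53E* at 18.1 ± 0.902 and 28.7 ± 0.561 and the zinc finger gene *Zfp691* at 10.9 ± 1.53 and 11.6 ± 0.949. The sulfide-oxidizing enzyme gene *Sqrdl* was at 10.4 ± 0.430 and 6.26 ± 0.0327 RPKM, the cardiac troponin T gene *Tnnt2* at 10.9 ± 0.338 and 6.23 ± 0.429 and the insulin-like peptide gene *Insl6* at 13.6 ± 0.0536 and 6.86 ± 0.224. *Msi1*, an RNA-binding protein of neural progenitors, was at 5.53 ± 0.000305 and 7.17 ± 0.0229 RPKM. *Sqrdl*, *Tnnt2* and *Insl6* had lower means at 26 months and *Msi1* and *D17H6S53E* higher ones, so no age direction was common to them. *Cramp1l* was at 9.84 ± 0.126 and 8.80 ± 0.207 RPKM in 9m and 26m OHC, *Gm10800* at 12.1 ± 0.205 and 9.31 ± 0.912, *Gm6916* at 11.4 ± 0.504 and 5.74 ± 0.582 and *Gm15420* at 5.04 ± 0.296 and 5.30 ± 0.646.

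The 13 members that match a gene elsewhere were set beside that gene. It is the one that shares most windows, or, for *Gm6311* and *Bcl2a1b*, the most abundant one. RPKM times exon length gives RPM, reads scaled by mapped reads alone, which is approximate where whole reads were not recovered. In 11 of 13 pairs the matching gene had at least 1 RPKM in both IHC groups, and in 9 at least 5 RPKM. Its mean was lower in OHC than in IHC in 8 pairs and higher in 5, among these *Bcl2a1a*, which was listed at 0 in both IHC groups. The OHC to IHC ratio had a median of 1.54 for the sum over 13 pairs and 0.761 for the matching gene alone over the 12 pairs that have one. The sum contains the member, whose difference was set by the choice of members.

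*Gm4737* was at 17.3 ± 0.260 and 10.1 ± 0.540 RPKM in 9m and 26m OHC and at 0 in 6 of 8 IHC libraries. *Ahcy* was at 6.99 ± 0.288 and 4.95 ± 0.402 RPKM in 9m and 26m IHC and 0.0979 ± 0.0781 and 3.07 ± 0.217 in 9m and 26m OHC. The member held 99.2% and 71.0% of the reads of the pair in the OHC groups. The sum of the pair was higher in OHC, at 19.8 ± 0.465 and 13.96 ± 1.03 RPM in the IHC groups against 36.4 ± 0.762 and 29.7 ± 0.521 RPM in the OHC groups.

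Copies of ribosomal protein genes had high levels. *Gm10260* was at 354 ± 4.001 and 252 ± 1.01 RPKM in 9m and 26m OHC and at 0 in all 8 IHC libraries. *Rps18* was at 17.8 ± 0.196 and 20.01 ± 0.609 RPKM in 9m and 26m IHC and 60.9 ± 1.41 and 50.9 ± 0.117 in 9m and 26m OHC, in the same order as its copy. *Gm26619*, which overlaps *Gm10260* on the opposite strand, was at 1.18 ± 0.204 and 1.20 ± 0.192 RPKM in the IHC groups and 81.2 ± 0.987 and 56.6 ± 1.73 in the OHC groups. *Gm10020*, a copy of *Rpl15*, was at 107 ± 0.393 and 76.8 ± 0.274 RPKM in the OHC groups and held 25.2% and 19.9% of the reads of its pair. *Gm6311*, a copy of *Rps2*, was at 49.6 ± 1.93 and 53.6 ± 0.553 RPKM and held 55.0% and 60.5%. *Rps2* itself was lower in OHC (19.5 ± 0.239 and 16.8 ± 0.711 RPKM) than in IHC (25.9 ± 0.0623 and 29.7 ± 1.10).

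In other pairs the sum moved less than the member, which the choice of members largely sets where the matching gene is present in IHC. *Pcna-ps2*, a copy of the DNA clamp gene *Pcna*, was at 19.2 ± 0.502 and 13.3 ± 1.94 RPKM in 9m and 26m OHC, and *Pcna* at 15.9 ± 0.173 and 14.4 ± 0.692 there and 16.9 ± 0.0980 and 18.02 ± 0.284 in 9m and 26m IHC. The OHC to IHC ratio of the sum was 1.17 for this pair, 1.08 for *Gm10282* with the nucleosome-binding gene *Hmgn2* and 0.889 for *Gm4353* with the nucleoporin gene *Nup35*. It was 0.806 for *Eno1b* with the glycolytic enolase *Eno1*. *Eno1b* was at 80.9 ± 3.29 and 136 ± 4.91 RPKM in the OHC groups and held 39.6% and 42.1% of the reads of its pair. *Gm10282* was at 14.01 ± 0.0316 and 19.1 ± 0.130 RPKM and *Gm7879*, which matches the cyclophilin gene *Ppih*, at 11.9 ± 1.19 and 11.7 ± 0.385 RPKM in the OHC groups. *Gm21738* was at 5.31 ± 0.724 and 7.12 ± 1.55 RPKM there and matches *Gm26870*, itself a member.

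All 9 members of the overlapping kind faced a gene on the opposite strand. *Gm44170* (chr6:88503605-88504277) faces *Sec61a1*, a subunit of the channel into the endoplasmic reticulum. It read 41.3, 49.0, 41.7 and 48.5 RPKM in 9m OHC, 57.1, 52.3, 54.8 and 48.5 in 26m OHC and at most 0.408 in an IHC library. *Sec61a1* was at 118 ± 2.999 and 79.1 ± 1.53 RPKM in 9m and 26m IHC, where 19 reads over 8 libraries fell on *Gm44170*, and at 41.7 ± 0.653 and 35.6 ± 0.910 in 9m and 26m OHC. *Sec61a1* was thus higher, and *Gm44170* lower, in IHC.

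*Gm17134*, across from the splicing regulator gene *Ptbp1*, had no read in 8 IHC libraries, which allows up to 0.0316 RPKM (3 reads over all 8, counting error only). It was at 28.6 ± 2.21 and 26.3 ± 2.37 RPKM in 9m and 26m OHC. *Ptbp1* was at 22.2 ± 0.163 and 23.7 ± 0.586 RPKM in 9m and 26m IHC and 11.5 ± 0.371 and 17.3 ± 0.386 in 9m and 26m OHC. *Gm37335*, across from the sulfotransferase gene *Hs6st1*, and *Gm13008*, across from the elongin gene *Tceb3*, also had no IHC read. *Hs6st1* was 3.59-fold lower in OHC and *Tceb3* 1.64-fold higher. Of the 9 facing genes 6 were lower and 3 higher in OHC. *Rap2b*, a small GTPase and the one protein-coding member here, was at 9.65 ± 0.298 and 12.8 ± 0.00977 RPKM in the OHC groups, and the facing *B430305J03Rik* was at 0 there. Values of the rest were those of *Gm13008* (17.9 ± 1.03 and 13.6 ± 0.114 RPKM in 9m and 26m OHC), *Gm12744* (7.01 ± 0.355 and 8.09 ± 0.136), *Gm26699* across from the splicing gene *Luc7l2* (6.36 ± 0.383 and 5.70 ± 0.347) and *Gm26870* across from *Gm10718* (8.43 ± 0.239 and 8.21 ± 0.0144). *Gm37335* was at 7.41 ± 0.0687 and 9.26 ± 1.92 RPKM in the OHC groups. The sources do not say that strand was recorded, so reads of these pairs cannot be assigned to a strand.

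**Figure D3:**
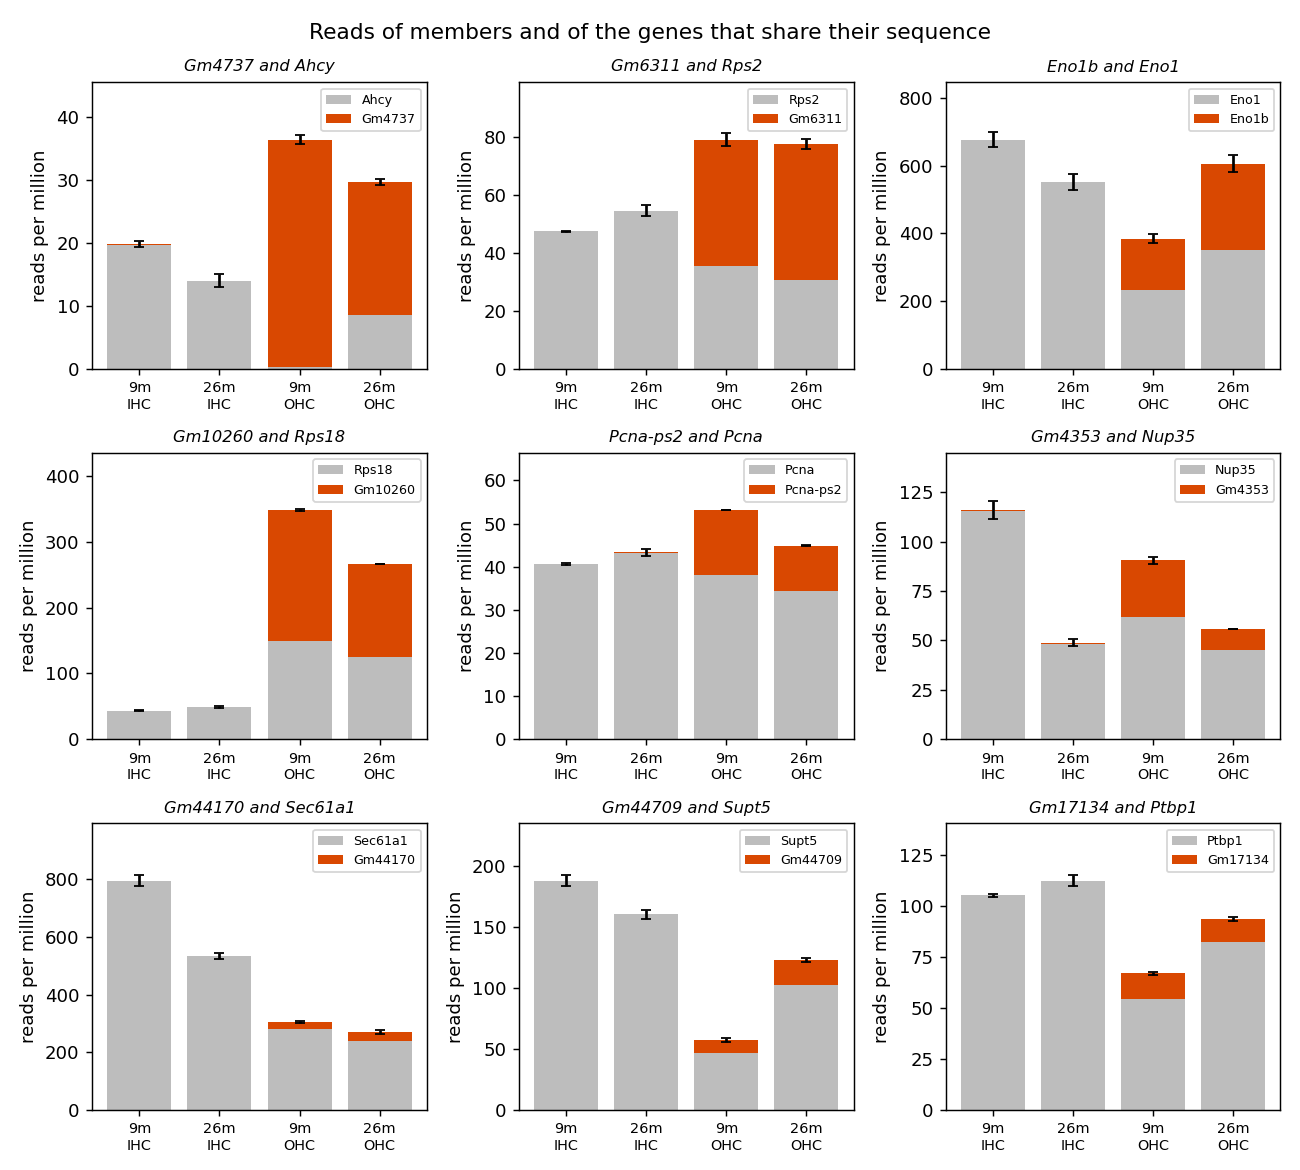
RPM (RPKM times exon length) of 9 members stacked on the gene that shares their sequence, as means of 4 libraries per labelled group; error bars are the SD of the sum over 2 averaged replicates. The part of the member is close to 0 in both IHC groups in each panel, as the choice of members sets, while the other gene is present there.

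Genes with shared sequence were counted over the whole table. Of 332 genes with at least 50% of windows in a gene elsewhere, 151 and 155 reached 1 RPKM in 9m and 26m IHC, and 163 and 181 in 9m and 26m OHC. Of 326 genes with at least 50% of windows in an opposite-strand gene, the counts were 133 and 122 in IHC and 157 and 177 in OHC. Over all 16455 genes with windows they were 10408 and 10034 in IHC and 9470 and 10939 in OHC. Among genes at 5 RPKM in both OHC groups, members made up 9.09% of the first kind, 14.5% of the second and 0.352% of genes with no shared window. The share was 0.905% over all genes with windows. Among genes at 5 RPKM in both IHC groups, mirror genes were 3 of 101, 2 of 66 and 11 of 3506 in the same order.

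For 14 members RefSeq (GRCm38.p6) gave 19 upstream sequences of 250 bases. Their median GC content was 55.2%, against 52.4% over 32851 such sequences. Both strands were searched, and no motif contains another. The GC box GGGCGG was found in 6 of the 19 sequences (32.7% of all sequences), CCAAT in 4 (33.8%) and the TATA box TATAAA in 4 (12.4%). The STAT site TTCNNNGAA was found for *Zfp691* alone (7.02% of all), the E box CACGTG for *Pim1* (6.02%) and the cyclic AMP element TGACGTCA for *Meg3* (1.55%). The upstream sequence of *Pim1* at chr17:29490535-29490784 (plus strand) is shown as that of the first marker, with its 7 GC boxes in capitals.
Pim1: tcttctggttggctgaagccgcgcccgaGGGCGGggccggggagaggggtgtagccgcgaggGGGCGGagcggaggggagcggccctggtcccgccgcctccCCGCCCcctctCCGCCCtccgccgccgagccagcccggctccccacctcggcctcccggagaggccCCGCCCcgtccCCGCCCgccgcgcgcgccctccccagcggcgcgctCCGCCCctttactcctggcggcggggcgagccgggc

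Age within the OHC groups was not part of the rule, apart from the floor at both ages. It was tested with limma on log2(RPKM + 0.1), and a gene was called past a log2 fold change of 1 with an adjusted p up to 0.1. At 26 months 4 of 39 members rose, 3 fell and 32 were not called. Of all 14843 genes tested 49.6% were called, 35.6% higher and 14.0% lower. Of the 4275 other genes at 5 RPKM in both OHC groups, 431 rose and 279 fell (16.6%), near the 17.9% of the members. The median log2 fold change was -0.04 for the members, 0.04 for those other genes and 0.45 for all genes tested. Median ratio scaling moved the last to 0.06 and that of the members to -0.43. The balance of the calls turned with it, to 2 members higher and 9 lower with median ratio scaling and 2 higher and 8 lower with quantile normalization. With the 2 doubtful labels exchanged, the same test would compare OHC with IHC at 26 months.

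*Meg3* rose most. It read 4.997, 5.06, 4.95 and 5.05 RPKM in 9m OHC and 60.4, 60.1, 57.8 and 58.9 RPKM in 26m OHC, with no overlap (log2 fold change 3.54, SE 0.0291, limma adjusted p = 2.04e-06). *Adh1*, an alcohol dehydrogenase that also oxidizes retinol, read 5.15, 4.90, 5.28 and 4.87 RPKM at 9 months and 14.7, 14.6, 14.6 and 13.9 at 26 months (log2 fold change 1.497, SE 0.0320, limma adjusted p = 4.20e-06). These rises were larger than the spread between replicates. *Bcl2a1b* read 4.75, 5.99, 6.04 and 4.91 RPKM at 9 months and 11.8, 11.3, 11.1 and 13.1 at 26 months (log2 fold change 1.11, SE 0.0379, limma adjusted p = 1.37e-05). *Gm44709* read 19.4, 22.3, 22.8 and 25.3 RPKM at 9 months and 44.7, 46.3, 43.9 and 45.8 at 26 months (log2 fold change 1.01, SE 0.0728, limma adjusted p = 1.64e-04). Both were near the fold threshold and lost the call under several settings, median ratio scaling among them (0.72 for *Bcl2a1b* and 0.61 for *Gm44709*). *Gm44709* also lost it without 9m OHC replicate 1 (0.91) or 26m OHC replicate 1 (0.998). *Supt5*, which faces *Gm44709*, was called higher too, from 8.14 ± 0.458 to 17.8 ± 0.280 RPKM (log2 fold change 1.12).

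Markers of other cells differed between the OHC groups too, and not all in the same direction. Summed over 8 macrophage markers, OHC libraries held 0.158 to 0.413 RPKM at 9 months, with 6 markers at 0, and 990.1 to 1019.9 RPKM at 26 months, and 8 of 8 rose. Summed over 8 neuron markers they held 115 to 117 RPKM at 9 months and 809 to 821 at 26 months, and 7 of 7 tested rose. Over 6 fibrocyte and stria markers the sum went from 29.1 to 31.0 RPKM to 385 to 396 RPKM, with 4 higher and 1 lower. Over 6 granulocyte markers it fell from 3.08 to 4.41 RPKM to 0.618 to 1.35 RPKM, though 2 of 3 tested rose. Of 7 supporting cell markers tested 2 rose and 3 fell. Of 4 Schwann cell markers 0 rose and 2 fell. *Bcl2a1b* is known from leukocytes and *Meg3* from neurons, among other cells, and the part of such cells in the rises was not tested.

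The 3 falls were in members that match a gene elsewhere, of which 2 are described. *Hist1h2al* read 37.7, 32.7, 34.0 and 34.6 RPKM at 9 months and 11.3, 13.7, 15.1 and 10.3 at 26 months (log2 fold change -1.46, SE 0.0275, limma adjusted p = 3.31e-06). Its match *Hist2h2aa1* fell as well (log2 fold change -1.34). Of 25 clustered histone genes tested, *Hist1h2al* itself among them, 14 fell and 8 rose. *Gm4353* read 20.2, 17.3, 18.5 and 17.6 RPKM at 9 months and 6.54, 7.28, 6.74 and 6.47 at 26 months (log2 fold change -1.43, SE 0.0398, limma adjusted p = 7.85e-06), while *Nup35* was at -0.45 and not called. In glycolysis 8 of 17 genes rose and 1 fell, with *Eno1b* at 0.75 and not called.

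**Figure D4:**
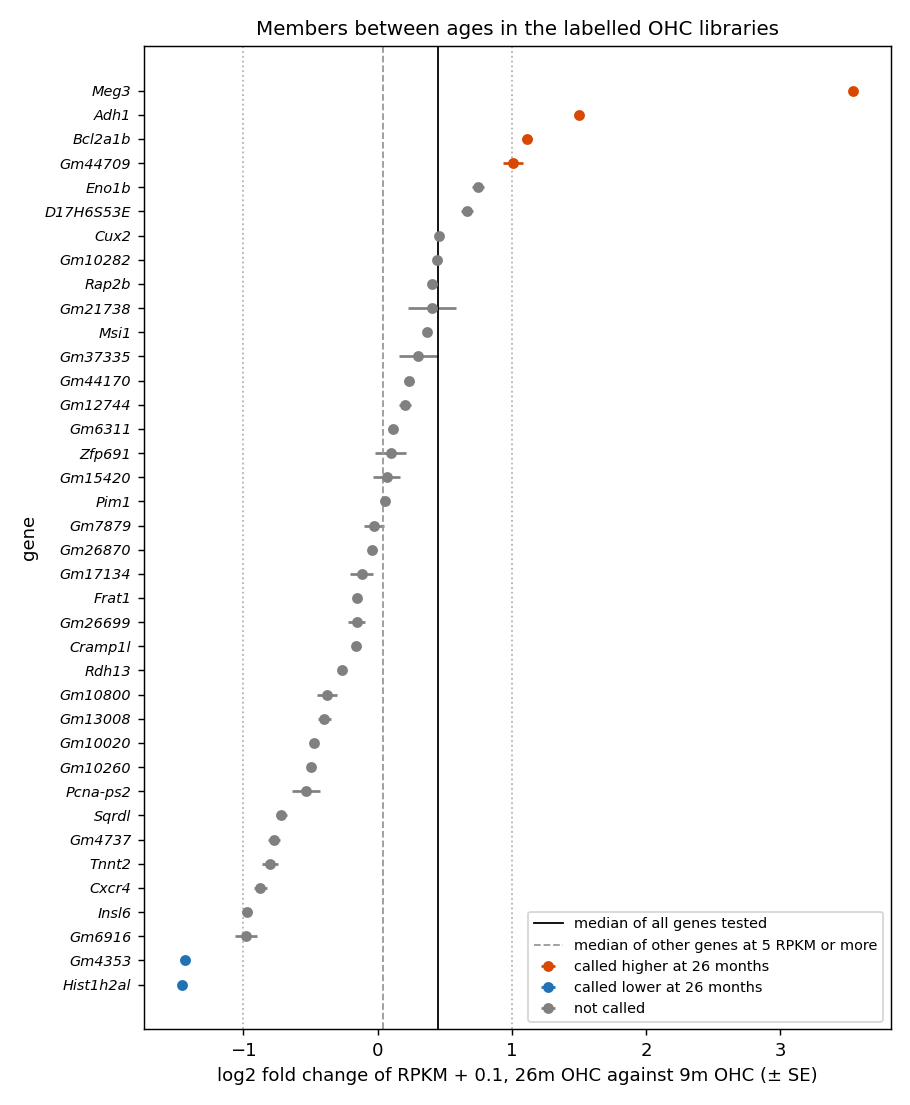
Log2 fold change of RPKM + 0.1 between 26m OHC and 9m OHC for the members shown (points; bars, SE of the limma fit). The members lie on both sides of 0, with 4 called higher, *Meg3* far from the rest, and 2 of the 3 called lower.

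The markers of the set were not called between ages in OHC, which rests on the doubtful label 9m OHC. With the labels exchanged, the choice of members itself would make both high at 26 months. *Pim1* passed neither threshold (log2 fold change 0.055, SE 0.0329, limma adjusted p = 0.178). *Cux2* passed the p threshold but not the fold threshold (log2 fold change 0.46, SE 0.0311, limma adjusted p = 1.33e-04), at about the median of all genes. *Cxcr4* (log2 fold change -0.87, SE 0.0466, limma adjusted p = 5.67e-05) and *Frat1* (log2 fold change -0.15, SE 0.0251, limma adjusted p = 0.00365) were not called either.

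In IHC the rule caps both ages, and 30 members passed the filter of 0.1 RPKM in a group. Of these 3 were called higher and 2 lower at 26 months, and of all 15711 genes tested 32.7% were called, 14.1% higher and 18.6% lower. *Cxcr4* (log2 fold change -1.80, SE 0.104, limma adjusted p = 3.69e-05) and *Rap2b* (log2 fold change -1.01, SE 0.127, limma adjusted p = 8.58e-04) fell. *Adh1* rose from 0.00358 to 0.206 RPKM (log2 fold change 1.56), *Gm10800* from 0 to 0.140 RPKM and *Gm6311* from 0.0382 to 0.220 RPKM. Few reads stood behind such values, 9 over 8 libraries for *Gm10800*, and at a pseudocount of 1 RPKM none of the 5 was called. *Rap2b* also lost the call with median ratio scaling (-0.83) and with RPKM rescaled without mitochondrial genes (-0.94). Its log2 fold change was -0.90 without 9m IHC replicate 2 and -0.94 without 26m IHC replicate 1. That of *Gm6311* was 1.04 without 9m IHC replicate 1 and 0.85 without 26m IHC replicate 2. Markers of other cells moved between these groups too. Summed over 8 macrophage markers, IHC libraries held 1.496 to 1.68 RPKM at 9 months, with 2 markers at 0, and 50.3 to 53.2 at 26 months. The sum over 6 granulocyte markers went from 0.0387 to 0.0825 RPKM, with 3 at 0, to 404 to 418, and that over 4 red cell markers from 399 to 405 to 5901 to 6129. All markers of these 3 lists rose, and 8 of 8 neuron markers fell, from a sum of 196 to 201 to 29.9 to 30.6 RPKM. Their part in the changes of the members was not tested. With the doubtful labels exchanged, the same test would compare OHC with IHC at 9 months.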

How the data were processed

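RNA-seq covered 16 libraries of hand-picked inner and outer hair cells in 4 labelled groups. The authors aligned reads to GRCm38 (mm10) with CLC Genomics Workbench and deposited a table of RPKM for 49585 genes. How reads that fit several genes were counted, and whether strand was used, is not given in the sources used here. Members and gene lists were chosen with earlier results of these data known.

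Mapped reads were inferred from the smallest steps of the deposited RPKM (whole reads within 0.001 for 74.8% of 20986 detected genes). At 1 kilobase, 3 reads are worth 0.0960 to 0.153 RPKM, a limit of counting error only. Ages were compared within a labelled cell type by limma 3.58.1 (R 4.3.3, trend) on log2(RPKM + 0.1), for genes whose mean reached 0.1 RPKM in either group, with Benjamini-Hochberg adjustment. This scale understates changes of low genes. In a simulation for the OHC comparison (9749 genes), 200 of 200 genes changed by a log2 fold change of 2 were recovered. Shared sequence was taken from GENCODE M21 transcripts and upstream sequence from RefSeq. Thresholds, pseudocount, filter, scaling, replicates and model were varied.

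Genes named were *Pim1*, *Cux2*, the 10 members highest by their lower OHC mean, those next to a threshold, called members, up to 8 with at least 50% of windows shared and their partners, the 3 longest and 3 shortest, and up to 4 per list. Other members were named after their values were seen. The values of 1 member, which stays in all counts, are not reported here, and the figures leave it out.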

Additional observations from a re-analysis of the deposited data

Results flagged for a closer look

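In 5 members the 9-month and 26-month libraries did not overlap in either labelled cell type, and the age change ran in opposite directions in OHC and IHC. The difference itself was not tested, and the IHC levels are capped by the choice of members. With the 2 doubtful labels exchanged, both comparisons would set OHC against IHC within an age. The IHC values of *Gm10800*, 0 and 0.140 RPKM, rest on 9 reads over 8 libraries. Its IHC log2 fold change was 1.26 at the pseudocount of 0.1 RPKM and 0.19 at 1 RPKM. That of *Rap2b* was -1.01 and -0.24, so these differences depend on the pseudocount. The log2 fold change in OHC minus that in IHC was 4.33 for *Meg3*, 1.41 for *Rap2b* and 1.18 for *Cux2*, which were higher at 26 months in OHC and lower in IHC. It was -1.64 for *Gm10800* and -0.77 for *Cramp1l*, which were lower in OHC and higher in IHC.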

How the results depend on the processing

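The member count was 39. It was 19 and 117 with an OHC threshold of 10 and 2 RPKM, 9 and 88 with an IHC threshold of 0.1 and 1 RPKM, 25 with the thresholds met in every library, and 212 with 9m IHC and 26m OHC alone. It was 53 with median ratio scaling and 37 to 40 without each averaged replicate. Members sharing sequence with another gene numbered 22, and 13 on the same strand only. Members called between ages in labelled OHCs numbered 7, and 4 at a pseudocount of 1 RPKM, 11 with median ratio scaling, 32 with no fold change threshold and 6 to 9 without each replicate. Members called between ages in labelled IHCs numbered 5, and 0 at a pseudocount of 1 RPKM, 0 with a filter of 1 RPKM, 11 at a pseudocount of 0.01 RPKM, 8 with quantile normalization, 18 with no fold change threshold and 6 to 8 without each replicate. The causes were not tested. No called member reversed its direction in the alternatives run.

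Groups share replicate numbers, but no label says that a number pairs samples, and deviations of same-numbered averaged replicates correlated at 0.137 (OHC) and 0.227 (IHC) across genes. With a replicate block, members called between ages in labelled OHCs numbered 7 and in labelled IHCs 5. Most IHC values rest on few reads.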
